A study of Caenorhabditis elegans with 6 samples.

Results

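UDP-glucuronosyltransferases are the enzymes that worms, like mammals, use to couple a sugar to a small fat-soluble molecule, and their genes carry the symbol ugt in C. elegans. The members described here are all genes of the deposited count table whose WormBase symbol begins with ugt-, found by matching the sequence name of each row to a table of gene names. This gave 67 genes of 20138 in the table, and none of the 67 ugt symbols in the name table was missing from the deposited one. All 67 also carried the name of the UDPGT family in a column of the deposited table, as did 8 genes without a ugt symbol.

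Enzymes of this family sit in the membrane of the endoplasmic reticulum and transfer a sugar from a UDP-sugar donor to a hydroxyl, amine or acid group, which makes the product more soluble in water and easier to export. The substrates include drugs, plant and bacterial toxins and compounds made by the animal itself, and many of them have first been oxidized by cytochromes P450 or flavin-containing monooxygenases (FMOs), the family of fmo-4. Nematodes carry more of these genes than mammals do, often in tandem runs. The intestine is the main site of such reactions in the worm, and in nematodes drugs are often coupled to glucose.

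The comparison was between worms labelled fmo-4 OE, for overexpression of fmo-4, and wild-type (WT) worms. Each group had 3 libraries of poly-A RNA from the whole body of worms harvested on day 1 of adulthood. Both groups were grown from the egg on NGM plates with concentrated OP50 E. coli and were not treated. The study made a ubiquitous strain with the eft-3 promoter and a hypodermal strain with the dpy-7 promoter, both from multicopy arrays, and the labels do not say which was sequenced. Replicates are labelled as biological, each a pool of worms, and p-values measure the spread between these pools. In whole worms, fewer cells of a type and less RNA per cell cannot be told apart.

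Library totals lay between 17576872 and 24943501 counts. The label could not be seen in the targeted gene itself: fmo-4 had 372, 476 and 368 counts in libraries labelled fmo-4 OE, against 522, 397 and 525 in WT. Its log2 fold change was -0.24 (SE 0.18, adjusted p = 0.947 in the edgeR quasi-likelihood test). In normalized counts (scaled to a common effective library size with TMM factors) it had 425, 446 and 351, against 528, 449 and 462 in WT. On that scale it was lower without overlap of the groups, as were 5.26% of all genes tested. The libraries differed in makeup within both groups. Genes shorter than 600 bases took 5.10%, 7.87% and 7.43% of counts in libraries labelled fmo-4 OE, against 4.99%, 5.18% and 8.0% in WT. Major sperm protein and other sperm genes summed to 316, 281 and 240 TPM in libraries labelled fmo-4 OE, against 1621, 309 and 1234 TPM in WT, so that WT replicate 2 lay close to the libraries labelled fmo-4 OE. Summed markers of the intestine overlapped between the groups (2550, 2961 and 2815 TPM in libraries labelled fmo-4 OE, against 2755, 3119 and 3316 TPM in WT). One by one, 6 of the 9 intestine markers tested had a log2 fold change below 0, with a median of -0.19, and 3 were lower without overlap of the groups. Of the 9, only vha-6, a subunit of the intestinal proton pump, had an unadjusted p under 0.05 (-0.42). Over all genes tested, 52.8% were below 0, with a median of -0.02. Of these genes, 5.26% were lower without overlap and 3.01% were lower at an unadjusted p under 0.05. The part of these differences in the values below was not tested except where a value is given.

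The ugt genes covered a wide range of levels. TPM (the count divided by gene length and scaled to the same sum over all genes in every library) allows levels to be compared between genes. Mean TPM over the 6 libraries lay between 0.0137 for ugt-35 and 75.3 for ugt-22, with a median of 3.84. Against all 20138 genes, these means lay between percentile 0.209 and percentile 87.3, and 34 of the 67 lay above the median gene. With abundant set at 50 TPM or more, 2 genes were abundant, 16 were moderate (10 to under 50 TPM), 31 were low (1 to under 10 TPM) and 18 were scarce (under 1 TPM).

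A few genes held most of the family's transcripts. The mean levels of the 67 genes added up to 575 TPM, of which the leading gene held 13.1%, the leading 5 genes 42.0% and the leading 10 genes 58.2%. The 18 scarce genes together held 1.06%. ugt-22 (C08F11.8, chromosome IV, 13639266 to 13644401) led the order, with 77.4, 56.8 and 56.7 TPM in libraries labelled fmo-4 OE, against 116, 70.7 and 74.3 TPM in WT. ugt-64 (C07G3.9, chromosome V, 3503130 to 3506352) followed, with 68.1, 53.2 and 58.1 TPM in libraries labelled fmo-4 OE, against 56.2, 66.3 and 61.5 TPM in WT. ugt-22 was above ugt-64 in 5 of 6 libraries, but the ranges of both genes overlapped. ugt-64 was also the steadiest member tested, with a coefficient of variation of 9.64% over the 6 libraries, against a median of 33.1% for the 56 ugt genes that passed the filter on low counts.

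ugt-62 (M88.1, chromosome III, 4537277 to 4540623) was the third by mean level. It had 78.5, 58.8 and 46.8 TPM in libraries labelled fmo-4 OE, against 44.5, 30.6 and 30.9 TPM in WT, and was the only one of the leading 5 whose groups did not overlap. ugt-47 had 38.7, 20.3 and 21.1 TPM in libraries labelled fmo-4 OE, against 36.2, 35.3 and 22.02 TPM in WT, and is overlapped on the other strand by srd-49. ugt-58 had 33.5, 22.6 and 25.1 TPM in libraries labelled fmo-4 OE, against 30.8, 34.5 and 22.6 TPM in WT. Replicate 1 was high and replicates 2 and 3 were low in libraries labelled fmo-4 OE for both genes, while in WT it was replicate 3 that was low. Ranks 6 to 10 were ugt-12, ugt-46, ugt-41, ugt-26 and ugt-50, with means between 22.3 and 15.3 TPM. In all 66 pairs of neighbours in the order of mean level, the ranges over the 6 libraries overlapped. Even so, ugt-58 lay above ugt-12, and ugt-11 above ugt-6, in each of the 6 libraries.

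**Figure D1:**
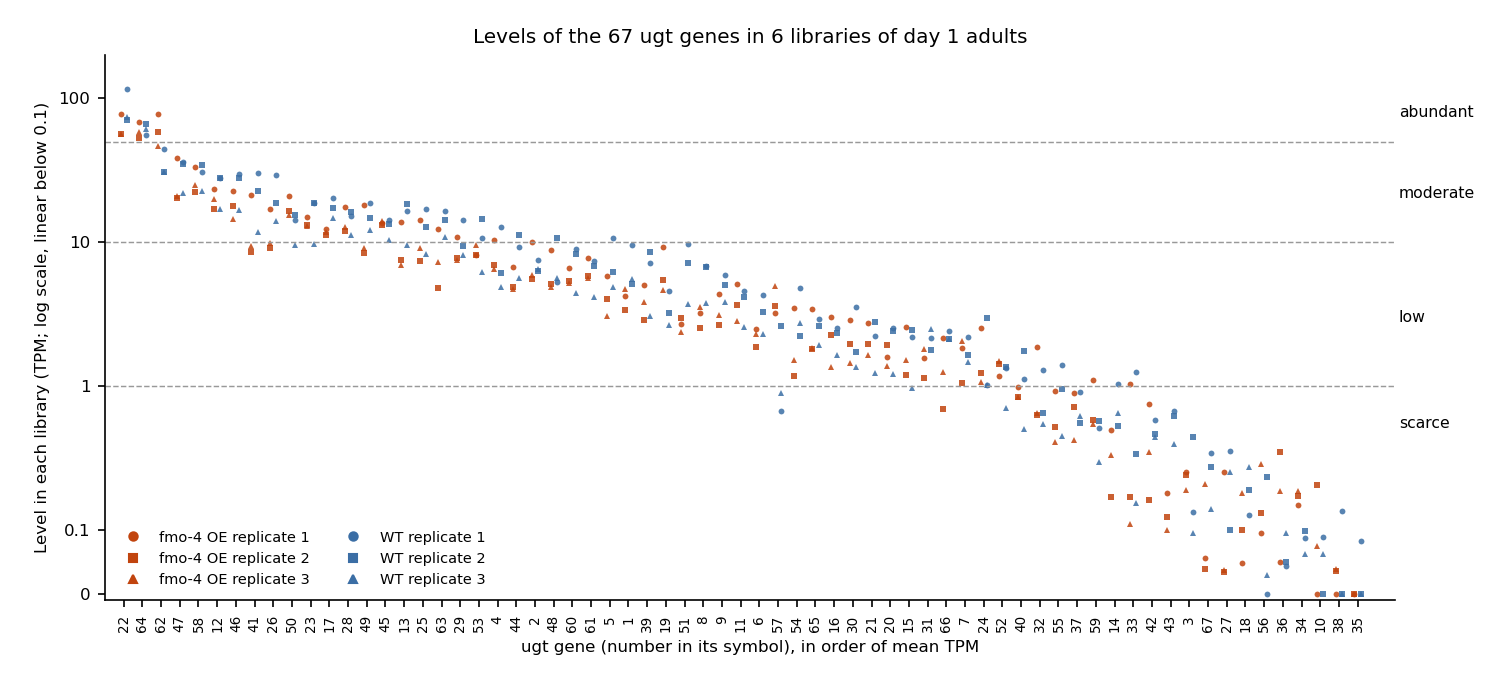
Level of each of the 67 ugt genes in each of the 6 libraries (TPM, log scale that is linear below 0.1), in order of mean level, with fmo-4 OE libraries in orange to the left of WT libraries in blue. The dashed lines at 50, 10 and 1 TPM part the 2 abundant, 16 moderate, 31 low and 18 scarce genes, and the points of neighbouring genes overlap all along the order.

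At the other end, 2 genes had 3 or fewer counts in every library. ugt-35 had 0, 0 and 0 counts in libraries labelled fmo-4 OE, against 2, 0 and 0 in WT. ugt-38 had 0, 1 and 1 counts in libraries labelled fmo-4 OE, against 3, 0 and 0 in WT. At totals of 17576872 counts or more, such numbers are at the limit of counting, and no fold is given for either gene. The other untested members were ugt-33, ugt-3, ugt-67, ugt-27, ugt-18, ugt-56, ugt-36, ugt-34 and ugt-10. Of these, ugt-33 had the most reads, with 21, 5 and 3 counts in libraries labelled fmo-4 OE, against 29, 7 and 5 in WT, so that replicate 1 was high in both groups.

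The genes lay unevenly over the genome. Chromosome V held 42 of the 67 ugt genes (62.7%), against 22.03% of all genes of the table. Chromosome IV held 12, chromosome I held 5, the X chromosome 4, chromosome III 3 and chromosome II 1. The deposited gene lengths were close to each other, between 1444 and 2222 bases with a median of 1689, against a median of 1155 bases over all protein-coding genes. In the WBcel235 annotation the largest number of exons in any transcript of a gene was 4 to 11 with a median of 7. It was 4 in ugt-44 and 11 in ugt-2, ugt-22 and ugt-50. Coordinates are given as deposited. They put every ugt gene on the same chromosome as WBcel235 does, and starts differed by a median of 8 bases.

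Most of the family sat in runs of neighbours. With at most 10000 bases between the end of one ugt gene and the start of the next, 37 genes fell into 11 runs and 30 stood alone, and 8 of the 11 runs were on chromosome V. The longest held ugt-12, ugt-11, ugt-9, ugt-10, ugt-67, ugt-8, ugt-14 and ugt-13 in 24286 bases (chromosome V, 4887173 to 4911458), with 5 genes on the plus strand, 3 on the minus strand and 1 gene without a ugt symbol, T19H12.2, inside. Another run on chromosome V (7139483 to 7169205) held 6 ugt genes with 5 other genes between them, among them the stearoyl-CoA desaturase gene fat-7. Runs of 4 were found on chromosome I (ugt-26, ugt-27, ugt-28 and ugt-25, 4721178 to 4735279, all on the plus strand) and on chromosome V (ugt-5, ugt-4, ugt-6 and ugt-3, 12792018 to 12800193, all on the minus strand). The other runs were 1 of 3 genes and 6 pairs.

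Neighbours in a run differed widely in level. In the run of 8, mean levels lay between 0.0721 TPM for ugt-10 and 22.3 TPM for ugt-12, a ratio of 309. In the run of 6, they lay between 0.0349 TPM for ugt-38 and 17.4 TPM for ugt-41. In the run on chromosome I, ugt-27, at 0.172 TPM, lay between ugt-26 at 16.4 TPM and ugt-28 at 14.2 TPM. In the run ugt-5 to ugt-3, levels lay between 0.226 TPM for ugt-3 and 7.91 TPM for ugt-4. Each of the 4 longer runs thus held at least 1 scarce gene that did not pass the filter on low counts.

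**Figure D2:**
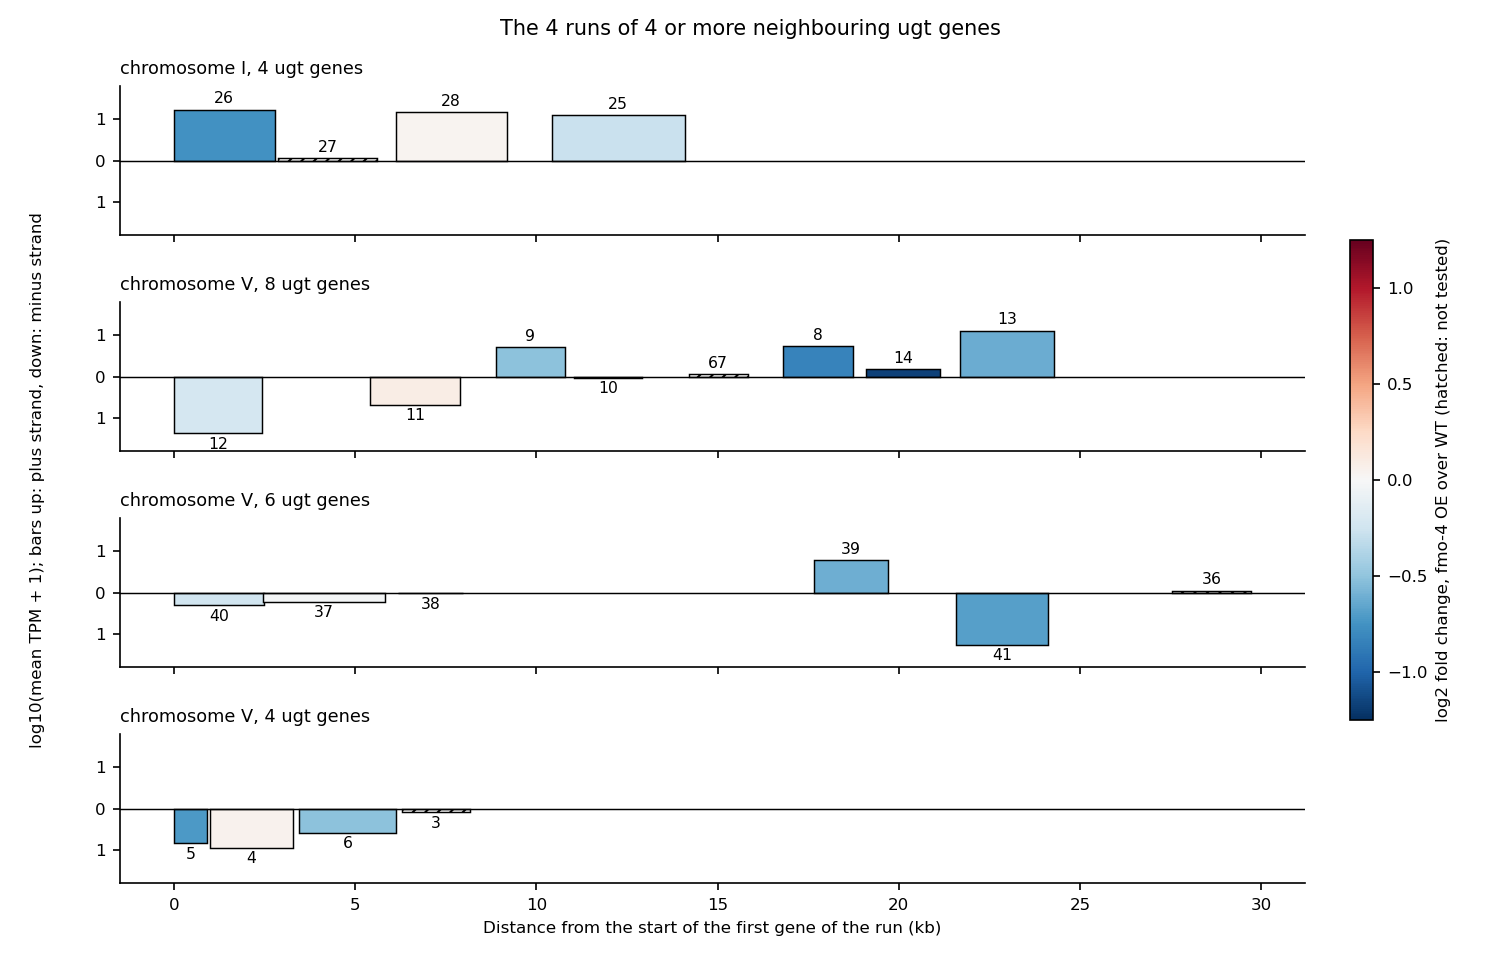
The 4 runs of 4 or more neighbouring ugt genes, drawn to scale by distance from the start of the first gene (kb). Bar height is log10(mean TPM + 1), drawn upward for the plus and downward for the minus strand, color is the log2 ratio of fmo-4 OE to WT, and hatched bars were not tested. Genes of very different height stand side by side, and most bars are blue, below 0.

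The summed level of the family split the libraries across their labels. The 67 genes summed to 673, 464 and 470 TPM in libraries labelled fmo-4 OE, against 733, 637 and 471 TPM in WT. The groups overlapped, with a ratio of the fmo-4 OE mean to the WT mean of 0.874. The 3 low libraries, fmo-4 OE replicates 2 and 3 and WT replicate 3, were the 3 in which genes under 600 bases took the largest share of counts. Summed markers of the hypodermis were also highest in these 3. They came to 666, 1404 and 1520 TPM in libraries labelled fmo-4 OE, against 711, 874 and 1740 TPM in WT. Most of this sum was the adult cuticle collagen col-19 (601, 1318 and 1414 TPM, against 638, 799 and 1675 TPM in WT). Of the other markers, col-10 and grd-10 were also highest in the same 3 libraries, but dpy-7, elt-3, rol-6 and wrt-2 were not. The marker nhr-23 was lowest in them. TPM gives short genes more weight, but the same 3 libraries were also lowest in summed normalized counts (counts scaled to a common effective library size), with 16823, 13842 and 13140 in libraries labelled fmo-4 OE, against 18570, 15962 and 14535 in WT. The sum of each of the 4 classes, on either scale, also overlapped between the groups.

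**Figure D3:**
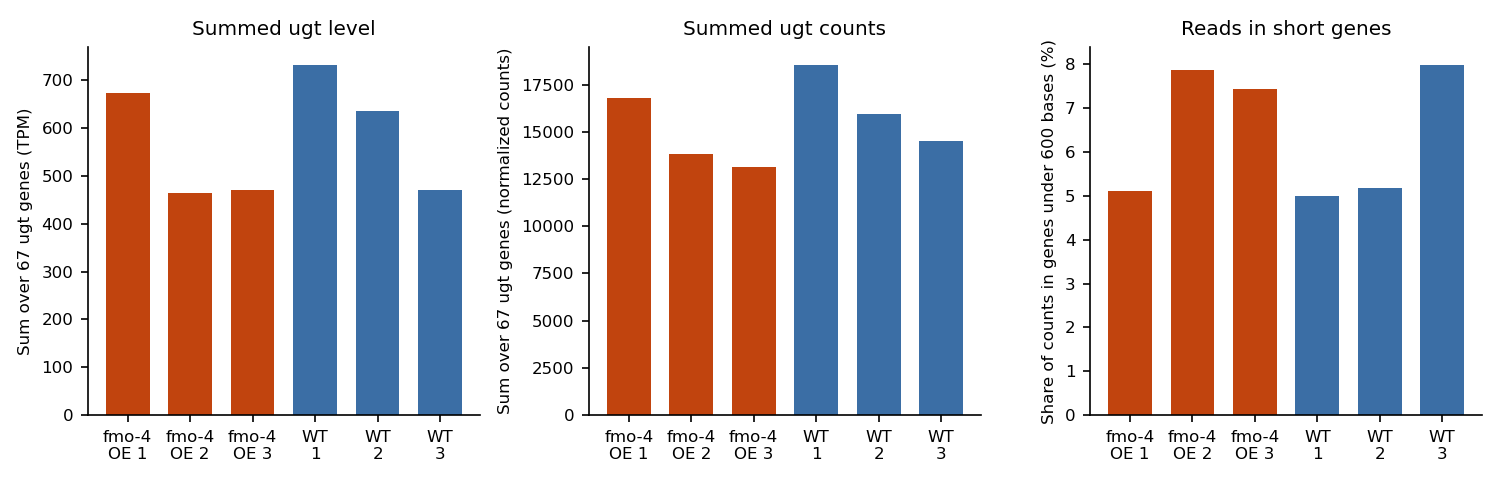
Sum of the 67 ugt genes in each library, in TPM (left) and in normalized counts (middle), beside the share of counts in genes under 600 bases (right, percent). Orange bars are fmo-4 OE replicates 1 to 3 and blue bars are WT replicates 1 to 3. The libraries with the lowest ugt sums, at 464, 470 and 471 TPM, are those with 7.87%, 7.43% and 8.0% of counts in short genes.

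Each gene was then compared between worms labelled fmo-4 OE and WT in 1 fit over all genes. Of the 67 ugt genes, 56 passed the filter on low counts, 52 of them with all 6 libraries over its limit of 0.484 CPM (counts scaled to library size). No ugt gene reached an adjusted p under 0.05 in the edgeR quasi-likelihood test with Benjamini-Hochberg adjustment, against 0.0447% of the 13413 genes tested, and none did with the Wald test of DESeq2. Adjusted p-values of the ugt genes lay between 0.583 and 0.995. At an unadjusted p under 0.05, 8 ugt genes were lower and 4 were higher in worms labelled fmo-4 OE, and 44 did not pass. DESeq2 gave 10 lower and 4 higher, among them all 12 of these genes. The background was 3.01% lower and 4.32% higher over all genes tested, so that the ugt genes had a larger share of lower calls (14.3%) and a somewhat larger share of higher calls (7.14%). The 8 lower genes include ugt-43, which passed the filter only through its WT libraries and so had to differ. Single libraries moved these counts: 3 genes were lower without fmo-4 OE replicate 2, 4 without fmo-4 OE replicate 3 and 3 without WT replicate 1, but 12 without fmo-4 OE replicate 1 or WT replicate 3, and 2 were higher without fmo-4 OE replicate 1.

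Most members leaned the same way without passing. Log2 fold changes were below 0 in 41 of the 56 genes, with a median of -0.23, against a median of -0.02 over all genes tested, of which 52.8% were below 0. This lean was not particular to the ugt genes. Below 0 were also 43 of 53 cytochromes P450 (median -0.42), 20 of 28 efflux transporters (-0.09) and 7 of 9 genes for UDP-sugars (-0.06). Glutathione and sulfate transferases, at 20 of 36, and short-chain dehydrogenases, at 18 of 30, lay nearer the share of all genes. Normalized counts of the groups did not overlap for 11 genes that were lower and 5 that were higher, which is 19.6% and 8.93% of those tested, beside 5.26% and 5.85% of all genes. The 11 also include ugt-43. On the TPM scale 6 lower and 3 higher genes did not overlap. The genes ugt-26, ugt-44, ugt-50 and ugt-63 were among those that then did, while ugt-1 overlapped in normalized counts but not in TPM. The median moved when single libraries were left out and when a split of the libraries was added to the fit. Leaving out WT replicate 1 gave -0.15 and leaving out WT replicate 3 gave -0.33. The value was -0.09 with the split of the libraries into those rich and those poor in short-gene reads in the fit. The counts of genes did not move with that split: 8 were lower and 4 were higher at an unadjusted p under 0.05 in edgeR. These include 10 of the 12 genes of the main fit. Sperm genes were highest in WT replicates 1 and 3, and 23 of the 29 tested had an unadjusted p under 0.05 and a lower level in worms labelled fmo-4 OE; their part in the ugt values, and that of the intestine markers with their median of -0.19, was not tested.

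**Figure D4:**
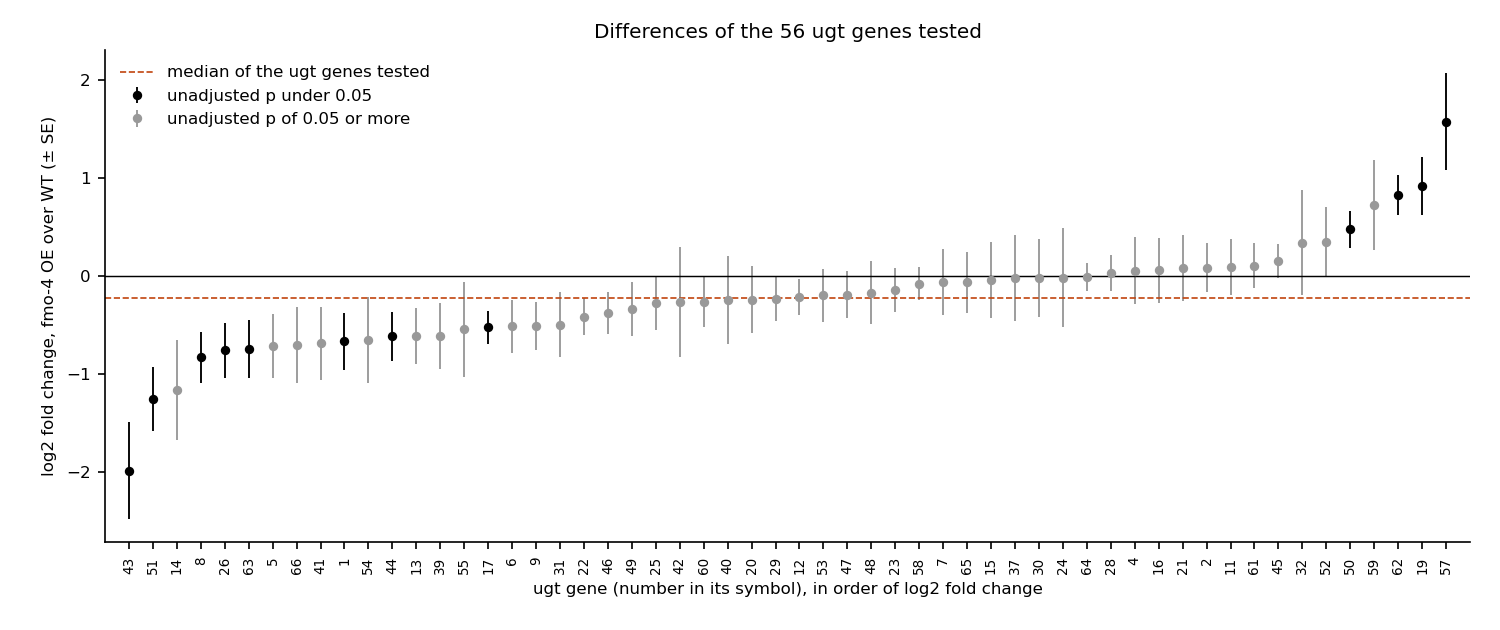
Difference between fmo-4 OE and WT as a log2 fold change with its standard error, derived from the F value of the test, for the 56 ugt genes tested, in order of size. Black points are the 12 genes with an unadjusted p under 0.05, grey points are the other 44, and the dashed line is the median of -0.23. Of the 56 points, 41 lie below 0.

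Among the higher genes, ugt-62 combined a high level with groups that lay apart. It had 1901, 1697 and 1267 normalized counts in libraries labelled fmo-4 OE, against 1081, 745 and 917 in WT, and the groups did not overlap. The difference on the log2 scale was 0.83 (SE 0.21, unadjusted p = 0.004 and adjusted p = 0.583 in edgeR), and it lay between 0.70 and 0.98 when each library was left out in turn. The unadjusted p stayed under 0.05 in all 14 alternatives.

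ugt-57 (F01E11.1, X chromosome, 6991757 to 6994159) had the largest positive log2 fold change of the family. It had 86.9, 116 and 152 normalized counts in libraries labelled fmo-4 OE, against 18.2, 71.2 and 29.9 in WT. WT replicate 2 was well above the other WT libraries but below every library labelled fmo-4 OE. This was a log2 fold change of 1.58 (SE 0.50, unadjusted p = 0.0137 and adjusted p = 0.583 in edgeR), and it lay between 1.22 and 2.28 when each library was left out in turn.

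ugt-19 (K08B4.3, chromosome IV, 6076690 to 6079945) had 221, 156 and 125 normalized counts in libraries labelled fmo-4 OE, against 109, 76.8 and 78.3 in WT. The groups did not overlap, though the lowest of the first lay near the highest of the second. The log2 fold change of ugt-19 was 0.92 (SE 0.30, unadjusted p = 0.0146 and adjusted p = 0.583 in edgeR), and p was 0.0519 without fmo-4 OE replicate 1. Its neighbour ugt-20, on the same strand, had a log2 fold change of -0.24 and did not pass. ugt-50 (T07C5.1, X chromosome, 12691610 to 12695657) had 548, 518 and 451 normalized counts in libraries labelled fmo-4 OE, against 375, 407 and 307 in WT. Its log2 fold change was 0.48 (SE 0.19, unadjusted p = 0.0347 and adjusted p = 0.620 in edgeR). For ugt-50 the unadjusted p of edgeR was 0.0867 and 0.0982 without fmo-4 OE replicate 1 or 2, and 0.0669 and 0.114 without WT replicate 1 or 3. The gene nhr-26 overlaps it on the other strand, and whether reads were counted by strand is not stated, so reads of the pair may be shared.

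Among the lower genes, ugt-51 (C03A7.11, chromosome V, 5175026 to 5177256) had 64.0, 83.4 and 63.0 normalized counts in libraries labelled fmo-4 OE, against 228, 171 and 106 in WT. The groups did not overlap, and the spread was wider in WT, where replicate 1 was highest. Its log2 fold change was -1.26 (SE 0.33, unadjusted p = 0.00503 and adjusted p = 0.583 in edgeR), and it lay between -1.51 and -0.99 when each library was left out in turn. C03A7.12, a gene of the same family without a ugt symbol that lies 1082 bases from ugt-51, had 52, 67 and 70 counts in libraries labelled fmo-4 OE, against 52, 55 and 79 in WT.

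ugt-43 (F01D4.1, chromosome IV, 10464659 to 10467240) had the lowest log2 fold change, at -1.99 (SE 0.50, unadjusted p = 0.00418 and adjusted p = 0.583 in edgeR). It rests on few reads: 4, 4 and 3 counts in libraries labelled fmo-4 OE, against 17, 14 and 14 in WT. The gene passed the filter only through its WT libraries, as no library labelled fmo-4 OE was over the limit, so it had to differ. Its neighbour on the same strand, ugt-44 (F01D4.2, 10469763 to 10471890), was lower too. ugt-44 had 170, 148 and 135 normalized counts in libraries labelled fmo-4 OE, against 234.8, 286 and 175 in WT. The log2 fold change of ugt-44 was -0.62 (SE 0.25, unadjusted p = 0.0378 and adjusted p = 0.632 in edgeR), and p was 0.0517 with the split by short-gene reads in the fit. For ugt-44 the unadjusted p of edgeR also passed over 0.05 without fmo-4 OE replicate 2 or 3 (0.0958 and 0.1197) and without WT replicate 1 or 2 (0.0745 and 0.1229).

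ugt-8, in the run of 8 on chromosome V, had 77.7, 72.1 and 95.4 normalized counts in libraries labelled fmo-4 OE, against 164, 162 and 112 in WT. The difference on the log2 scale was -0.83 (SE 0.26, unadjusted p = 0.0136 and adjusted p = 0.583 in edgeR). That unadjusted p became 0.0541 in edgeR without fmo-4 OE replicate 2. Of the 6 genes of this run that were tested, 5 had a log2 fold change below 0, with a median of -0.56, and normalized counts of ugt-8, ugt-9 and ugt-14 did not overlap between the groups. ugt-11 was the exception, at 0.09. Only 1 member of the run passed. Over all genes tested, 52.8% were below 0 and 5.26% were lower without overlap, and of the ugt genes tested, 41 of 56 were below 0. ugt-14 rests on few reads, with 10, 5 and 9 counts in libraries labelled fmo-4 OE, against 24, 11 and 21 in WT. Only 1 library labelled fmo-4 OE was over the filter limit for ugt-14.

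ugt-26 led the run on chromosome I. It had 447, 287 and 291 normalized counts in libraries labelled fmo-4 OE, against 779, 497 and 457 in WT, and the highest of the first lay just under the lowest of the second. This was a log2 fold change of -0.76 (SE 0.28, unadjusted p = 0.0270 and adjusted p = 0.597 in edgeR). Without WT replicate 1 edgeR gave -0.49 with an unadjusted p of 0.106, and the unadjusted p was 0.0888 and 0.0896 without fmo-4 OE replicate 2 or 3. Its neighbours ugt-28 and ugt-25 had log2 fold changes of 0.03 and -0.27, and neither passed.

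ugt-17 (C08B6.1, chromosome V, 10102591 to 10104946) had the smallest standard error of the 12 genes that passed. It had 298, 324 and 318 normalized counts in libraries labelled fmo-4 OE, against 495, 423 and 435 in WT. Its log2 fold change of -0.52 (SE 0.17, unadjusted p = 0.0157 and adjusted p = 0.583 in edgeR) lay between -0.57 and -0.46 when each library was left out in turn. The unadjusted p of edgeR was 0.0529 without fmo-4 OE replicate 1 and 0.0508 without WT replicate 1. ugt-47, the other gene of this pair, had a log2 fold change of -0.19 and did not pass.

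ugt-63 (C04F5.7, chromosome V, 5108015 to 5110789) had 304, 141 and 200 normalized counts in libraries labelled fmo-4 OE, against 403, 354 and 325 in WT. Replicate 1 of fmo-4 OE lay near WT and replicate 2 far below. Its log2 fold change was -0.75 (SE 0.29, unadjusted p = 0.0351 and adjusted p = 0.623 in edgeR). The unadjusted p of edgeR was 0.108 without fmo-4 OE replicate 2, 0.0955 without fmo-4 OE replicate 3, 0.0915 without WT replicate 1 and 0.0631 without WT replicate 2. ugt-1 (AC3.7, chromosome V, 10395677 to 10397817) had 103, 98.4 and 128 normalized counts in libraries labelled fmo-4 OE, against 234, 124 and 165 in WT. In normalized counts ugt-1 was the only gene of the 12 whose groups overlapped, but in TPM its groups lay apart. Its log2 fold change was -0.67 (SE 0.29, unadjusted p = 0.0496 and adjusted p = 0.678 in edgeR), and p stayed under 0.05 in 3 of 14 alternatives. Of the 6 fits of ugt-1 with 1 library left out, only the one without WT replicate 2 kept it, and the others gave an unadjusted p between 0.0576 (without fmo-4 OE replicate 3) and 0.189 (without WT replicate 1). Its neighbour ugt-2 had a log2 fold change of 0.08.

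**Figure D5:**
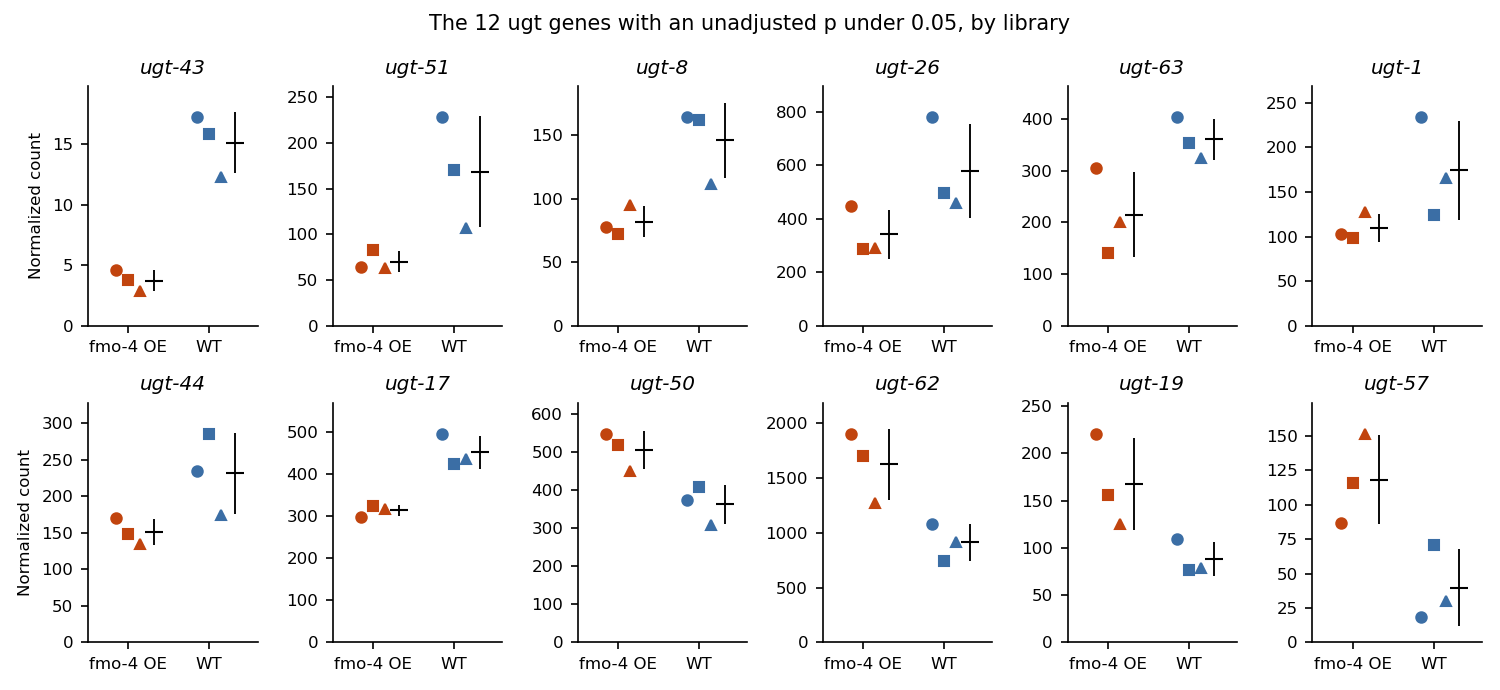
Normalized counts in each library of the 12 ugt genes with an unadjusted p under 0.05, in order of log2 fold change, with fmo-4 OE (orange) left of WT (blue). Circles, squares and triangles are replicates 1, 2 and 3, and the black marks are mean and SD over 3 libraries. The groups overlap in ugt-1 alone, and ugt-43 has 17.2 or fewer normalized counts in every library.

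Neither abundant member passed in the fit of all 6 libraries. The most abundant member, ugt-22, had 2248, 1964 and 1840 normalized counts in libraries labelled fmo-4 OE, against 3370, 2061 and 2646 in WT, a log2 fold change of -0.42 (SE 0.19, unadjusted p = 0.0616 and adjusted p = 0.697 in edgeR). For ugt-22 edgeR gave -0.58 with an unadjusted p of 0.0133 without WT replicate 2, and -0.23 with an unadjusted p of 0.227 without WT replicate 1. ugt-64 had a log2 fold change of -0.01 with an SE of 0.14, the smallest of the family. ugt-41 had 544, 258 and 269 normalized counts in libraries labelled fmo-4 OE, against 769, 585 and 369 in WT, and its log2 fold change of -0.69 had an SE of 0.37. Over the tested genes the SE had a median of 0.29, and 4 of the 56 had a log2 fold change of 1 or more in size.

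ugt-5, first in the run ugt-5 to ugt-3, had 137, 113 and 81.1 normalized counts in libraries labelled fmo-4 OE, against 255, 148 and 141 in WT. The groups did not overlap, and the log2 fold change was -0.71 (SE 0.32, unadjusted p = 0.0595 and adjusted p = 0.695 in edgeR). Its deposited span of 919 bases is shorter than its deposited length of 1661 bases, the only such case among the 67. The other tested genes of the run were ugt-6 at -0.51 and ugt-4 at 0.05, and neither passed.

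Genes in runs and genes that stood alone were set side by side as a description. In the runs, 21 of 27 tested genes had a log2 fold change below 0, with a median of -0.51, and 6 were lower (among them ugt-43, which passed the filter only through WT) and 1 was higher at an unadjusted p under 0.05. Outside the runs, it was 20 of 29 with a median of -0.08, with 2 lower and 3 higher. Over all genes tested, 52.8% were below 0, 3.01% were lower and 4.32% were higher. Neighbours of similar sequence can also share reads, and the difference was not tested. By chromosome, beside the same shares of all genes tested, 26 of 32 tested ugt genes on chromosome V were below 0, with 5 lower and 0 higher, and on the X chromosome 2 of 4 were higher. The 6 genes of the table with no read in any library labelled fmo-4 OE and a mean of 20 or more in WT all lay within 36628 bases of chromosome V, and the nearest ugt gene, ugt-32, was 92366 bases away.

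The other steps of conjugation were read out of the same fit, in which 7.34% of all genes passed an unadjusted p under 0.05 in either direction. Of the genes listed here for the making and transport of UDP-sugars, such as the UDP-glucose dehydrogenase sqv-4, 0 of 9 tested passed an unadjusted p under 0.05 in either direction, with a median log2 fold change of -0.06. Of 28 tested genes of the mrp, pgp and haf families, listed here as efflux transporters, 3 were lower (pgp-11 at -0.63, pgp-5 at -0.88 and pgp-8 at -1.20) and 0 were higher. Of 36 glutathione and sulfate transferases, gst-20 was higher at 0.75 and gst-36 was lower at -0.52. Of 53 cytochromes P450, which oxidize substrates before conjugation, 9 were lower and 2 were higher. Of the lower ones, 5 in the cyp-34A and cyp-35A groups lay in the stretch of chromosome V without reads in libraries labelled fmo-4 OE. These 5 passed the filter only through their WT libraries, so they had to differ, also the 3 with an adjusted p under 0.05 in edgeR. Of 30 short-chain dehydrogenases 1 was lower (dhs-26 at -1.44), and of 5 FMO genes 1 was lower (fmo-1 at -1.12). None of 21 regulators of detoxification genes, among them skn-1, nhr-8 and ahr-1, passed in either direction.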

How the data were processed

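Poly-A RNA of whole day 1 adults was sequenced in 3 libraries labelled fmo-4 OE and 3 WT libraries. The authors deposited 1 table of raw read counts per gene (not normalized) with a gene length in bases for 20138 genes, and this table was used. The submitters' processing notes name fastp, HISAT2, StringTie and featureCounts. Their versions, the genome build and the use of strand in counting are not given in the sources used here, nor is how reads shared by near-identical genes were counted. The table and 3 shorter lists also hold the authors' fold changes, p-values and adjusted p-values, which report the study's own comparison and were not used, nor were 66 columns of values for single libraries (normalized signal, FPKM and the copies in the shorter lists).

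Sequence names were matched to symbols for the 67 ugt genes through a table of gene names, and exon numbers came from the WBcel235 annotation. TPM was computed from counts and deposited lengths over all genes. Counts were fitted over all genes in R 4.3.3 with edgeR 4.0.16 (filterByExpr with a minimum count of 10, TMM, robust glmQLFit and glmQLFTest, two-sided), with Benjamini-Hochberg adjustment across 13413 tested genes. The biological coefficient of variation was 0.297. The code was tested on simulated data. Library totals of 17576872 to 24943501 counts set the precision of low genes. Alternatives were DESeq2 1.42.0, RLE factors, library size alone, other filters, a fit of protein-coding genes, the replicate number as a block, the split of the libraries by short-gene reads, and each library left out. The members, lists and alternatives were chosen with earlier results of these data known. Named genes were the 10 with the highest mean TPM, those with an unadjusted p under 0.05, the 5 highest and 5 lowest log2 fold changes among genes with a mean normalized count of 50 or more and groups that do not overlap (4 qualified as higher), the runs of 4 or more, and fmo-4. Genes named outside this rule (other neighbours in a run, untested genes and genes of the other lists) were chosen after their values were seen. Protein and promoter sequences were not analysed here.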

Additional observations from a re-analysis of the deposited data

How the results depend on the processing

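No alternative gave a ugt gene an adjusted p under 0.05. The number of lower genes at an unadjusted p under 0.05 was 8. It was 13 with replicate number as a block, and it lay between 3 and 12 with 1 library left out: 3 after leaving out WT replicate 1, also 3 after leaving out fmo-4 OE replicate 2, and 4 after leaving out fmo-4 OE replicate 3. The number of higher genes was 4, and it lay between 2 (without fmo-4 OE replicate 1) and 4. The replicate block rests on numbers alone. Deviations of same-numbered libraries correlated at 0.43, -0.31 and 0.36, and those of other pairs between -0.58 and 0.51. With 3 libraries a group, these values cannot decide whether libraries of the same number belong together. The median log2 fold change of -0.23 was -0.093 with the split by short-gene reads in the fit, and it lay between -0.33 and -0.15 with 1 library left out.

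The 12 genes with an unadjusted p under 0.05 kept their direction in all 167 values tried, and lost that p in 32, of which 24 were fits with 1 library left out. The other 8 named genes gained such a p in 12 of the values tried: ugt-22, ugt-46, ugt-41 and ugt-5 with the block (0.0232, 0.0447, 0.0124 and 0.0231), ugt-41 also with the split in the fit (0.0345), ugt-5 with DESeq2 (0.0452), and the other 6 with 1 library left out. Among the 20 named genes, direction turned for 2 near 0; genes outside them were not counted. ugt-64 was at 0.0051 with library size alone, at 0.0206 without a filter beyond 1 count, at 0.0189 with at least 10 counts in every library, and between -0.128 and 0.0882 with 1 library left out. ugt-58 was at 0.0075 with the split in the fit, and between -0.16 and 0.0040 with 1 library left out.

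With class limits at 2 times the values used, 0 genes were abundant and 7 moderate. Runs numbered 12 with gaps of up to 5000 bases and 11 with gaps of up to 20000 bases, with 37 genes each. The cause of these changes was not tested. Counts limit the 18 scarce genes: 11 members did not pass the filter, and all 67 were fitted without it, where none had an adjusted p under 0.05.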

Other observations

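The 8 genes that carry the UDPGT family name without a ugt symbol were mostly scarce. C03A7.12 had the highest mean level, at 4.39 TPM, and F54C1.1 followed at 1.53 TPM. F54C1.1 had 31, 17 and 35 counts in libraries labelled fmo-4 OE, against 63, 56 and 34 in WT, with a log2 fold change of -0.89 (SE 0.45, unadjusted p = 0.0854, adjusted p = 0.754 in edgeR). The pseudogene AC3.9 had 2, 0 and 0 counts in libraries labelled fmo-4 OE, against 0, 0 and 0 in WT. These genes were not counted among the 67.

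In the deposited coordinates 7 ugt genes overlap another gene of the table. ugt-47, ugt-48, ugt-50, ugt-59 and ugt-65 each overlap a gene on the other strand, and ugt-40 and ugt-37 overlap each other on the same strand.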
